A study of Mus musculus with 9 samples.

Results

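The genes described here are the kinases Cdk6 and Cdk4 and their partners, the D-type cyclins Ccnd1, Ccnd2 and Ccnd3. They were taken by name from a table of gene counts, 5 of its 47593 rows, and all 5 passed the filter on low counts. The table holds RNA sequencing of 9 whole, flash-frozen mouse medulloblastomas, 6 labelled Cdk6-/- and 3 labelled Cdk6+/+. All 9 mice carried, on C57BL/6J, an Atoh1-cre transgene (Math1-Cre) and a Rosa26 allele of SmoM2 fused to EYFP, so the activated Smoothened receptor was switched on in granule neuron progenitors and their descendants. The comparison asked what deletion of Cdk6 changes in these tumours. The sources used here give neither the age of the mice, nor the deleted exon, nor the cells in which Cdk6 was deleted. Each tumour is a separate sample by label, and the p-values measure the spread between these samples. A whole tumour also holds vessels, glia and remaining cerebellum, and in such a sample fewer cells of a type and less RNA per cell cannot be told apart.

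Cells leave the G1 phase of the cell cycle when a D-type cyclin binds Cdk4 or Cdk6 and the active kinase phosphorylates the retinoblastoma protein Rb1 and its relatives, which frees E2F transcription factors. INK4 proteins inhibit Cdk4 and Cdk6 directly. In granule neuron progenitors of the cerebellum, Hedgehog signalling through Smoothened raises Mycn and the D-type cyclins, Ccnd1 early and Ccnd2 in progenitors that go on dividing, and medulloblastomas of the Hedgehog group keep this programme. Cdk4 and Cdk6 can substitute for each other in many cell types.

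The Cdk6-/- libraries held 21386685 to 34539738 counts and the Cdk6+/+ libraries 39426972 to 56837204. Levels are given in CPM, the usual depth-normalised unit of read counts, scaled by TMM (a scaling that equalises the bulk of genes between libraries). Tumours 1 and 5 of the Cdk6-/- group stood apart. Tumour 5 had a summed level of 0.884 CPM over 5 proliferation markers (Mki67, Top2a, Ccnb1, Cdk1 and Birc5), against 1788 CPM in Cdk6-/- tumour 1, 1542 to 2229 CPM in Cdk6-/- tumours 2, 3, 4 and 6 and 1861 to 2204 CPM in the Cdk6+/+ tumours. Tumour 5 also had 8379 CPM over 5 Purkinje cell markers, where no other library exceeded 1278 CPM. The sum of 5 markers of mature granule neurons was 3747 CPM in tumour 1 and 4691 CPM in tumour 5, against 236 to 563 CPM in Cdk6-/- tumours 2, 3, 4 and 6 and 334 to 611 CPM in Cdk6+/+ tumours. Results are given with all 9 libraries and without these 2, a choice made with earlier results of these data known.

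Cdk6 was counted in every library labelled Cdk6-/-. The gene lies on chromosome 5 (3341485 to 3531008, GRCm38, plus strand) and its exons cover 13989 bases. Its counts in Cdk6-/- tumours 1 to 6 were 3997, 15256, 10927, 11261, 49 and 7822, against 31203, 22571 and 21692 in Cdk6+/+ tumours 1 to 3. In CPM these were 214, 562, 270, 464, 2.17 and 351 in Cdk6-/- tumours, against 562, 551 and 562 in Cdk6+/+ tumours. The Cdk6+/+ tumours were nearly equal, with an SD of 1.18% of their mean. The Cdk6-/- tumours spread over a wide range, 5 of 6 were below the Cdk6+/+ mean, and tumour 2 lay within the Cdk6+/+ range. The log2 fold change, Cdk6-/- minus Cdk6+/+, was -0.85 (standard error, SE, 0.93), and edgeR's quasi-likelihood test, adjusted over all genes, did not call it (adjusted p = 0.672). Without tumours 1 and 5 it was -0.44 (SE 0.25, adjusted p = 0.252). The counts cover all exons, transcript from outside a deleted part included, so they do not check the genotype and the groups are called by their labels.

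**Figure D1:**
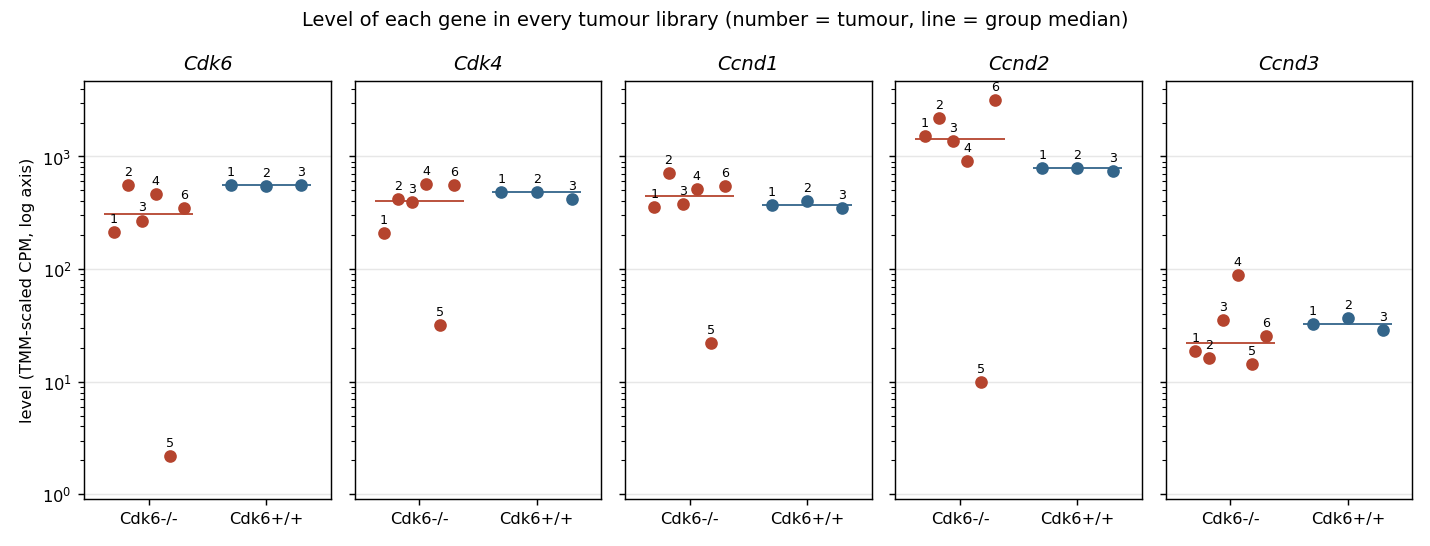
Level of each of the 5 genes (TMM-scaled CPM, log axis) in every library, the 6 Cdk6-/- tumours left of the 3 Cdk6+/+ tumours in each panel, with the tumour number above the point and a line at the group median. Cdk6-/- tumour 5 is lowest in all 5 panels, from 2.17 CPM for Cdk6 to 31.7 CPM for Cdk4, and the Ccnd2 level of Cdk6-/- tumours 1, 2, 3, 4 and 6 is above that of all Cdk6+/+ tumours.

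Cdk4, the other D-cyclin kinase, had overlapping levels under both labels. It lies on chromosome 10 (127063534 to 127067920, plus strand). Cdk6-/- tumours 1 to 6 had 210, 416, 396, 569, 31.7 and 554 CPM, against 487, 481 and 419 CPM in Cdk6+/+ tumours 1 to 3. Tumours 4 and 6 of the Cdk6-/- group were above every Cdk6+/+ tumour and the other 4 were below, so the groups overlapped. The means were 363 ± 208 CPM (SD, n = 6) in Cdk6-/- and 462 ± 37.9 CPM (SD, n = 3) in Cdk6+/+ tumours. The log2 fold change was -0.35 (SE 0.64, adjusted p = 0.819 in edgeR's test) and 0.07 (SE 0.20, adjusted p = 0.838) without tumours 1 and 5. A higher Cdk4 level under the Cdk6-/- label was therefore not detected, and a p that misses the threshold does not show equal levels.

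The 250 bases before the RefSeq starts of Cdk4 (GRCm38.p6, chr10:127063285-127063534, plus strand) and Cdk6 (GRCm38.p6, chr5:3343643-3343892, plus strand) are shown because they differ in how often they hold the E-box CACGTG, the motif bound by Myc and Mycn. Capitals mark this motif, which reads the same on both strands. The Cdk6 window lies inside the annotated gene, which starts at 3341485, while the Cdk4 window ends at the annotated gene start, 127063534.
Cdk4: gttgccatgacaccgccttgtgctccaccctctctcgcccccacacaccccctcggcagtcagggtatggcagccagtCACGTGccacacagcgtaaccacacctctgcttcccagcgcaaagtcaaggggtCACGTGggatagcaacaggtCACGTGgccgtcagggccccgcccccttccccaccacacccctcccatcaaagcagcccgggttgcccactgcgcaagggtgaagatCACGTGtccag
Cdk6: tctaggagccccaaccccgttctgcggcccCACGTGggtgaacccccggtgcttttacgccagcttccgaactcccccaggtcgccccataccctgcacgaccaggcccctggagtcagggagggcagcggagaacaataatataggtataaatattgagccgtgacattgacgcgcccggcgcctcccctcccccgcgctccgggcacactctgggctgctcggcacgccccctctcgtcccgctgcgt
The Cdk4 window held the motif 4 times and the Cdk6 window 1 time. Of the 32851 RefSeq windows of this length, which include several starts for some genes, 6.02% held it at least 1 time and 7 windows held it 4 or more times. Of the 2 windows of Ccnd3 neither held it. The Gli motif GACCACCCA (either strand) was in none of these windows and in 0.225% of all windows. A match is a stretch of letters and does not show binding, and the absence of a match says nothing about the factor.

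Ccnd1, cyclin D1, was above the Cdk6+/+ mean in 4 of 6 Cdk6-/- tumours. It lies on chromosome 7 (144929931 to 144939925, minus strand). Cdk6-/- tumours 1 to 6 had 355, 713, 376, 515, 22.2 and 547 CPM, against 373, 401 and 351 CPM in Cdk6+/+ tumours 1 to 3. Tumours 2, 4 and 6 were above every Cdk6+/+ tumour, tumours 1 and 3 lay within their range and tumour 5 far below it. The log2 fold change was 0.17 (SE 0.70, adjusted p = 0.925 in edgeR's test), -0.075 (adjusted p = 0.970) without tumour 2 and -0.37 (adjusted p = 0.877) by limma-voom. Without tumours 1 and 5 it was 0.52 (SE 0.23), with an adjusted p of 0.147 that did not pass.

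Ccnd2, cyclin D2, had a log2 fold change larger in size than that of the other members in edgeR's fits with all 9 libraries and without tumours 1 and 5. Cdk6 had the larger size by limma-voom (-1.90, against -0.13 for Ccnd2), without Cdk6-/- tumour 2 (-1.12, against 0.81) and without Cdk6-/- tumour 6 (-0.89, against 0.64). Ccnd2 lies on chromosome 6 (127125162 to 127152193, minus strand). Cdk6-/- tumours 1 to 6 had 1508, 2198, 1378, 911, 9.90 and 3172 CPM, against 786, 786 and 741 CPM in Cdk6+/+ tumours 1 to 3. Every Cdk6-/- tumour except tumour 5 was above every Cdk6+/+ tumour, and tumour 6 was 3.48 times as high as tumour 4. Over all 9 libraries the means were 1530 ± 1082 CPM (SD, n = 6) in Cdk6-/- and 771 ± 25.8 CPM (SD, n = 3) in Cdk6+/+ tumours, and the log2 fold change of 0.99 (SE 1.03) did not pass edgeR's test (adjusted p = 0.654) and was -0.13 (adjusted p = 0.980) by limma-voom.

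Without tumours 1 and 5, Ccnd2 rose by 1.31 on the log2 scale, 2.49-fold (SE 0.38, adjusted p = 0.0463 in edgeR's test). The means were then 1915 ± 993 CPM (SD, n = 4) in Cdk6-/- and 771 ± 25.8 CPM (SD, n = 3) in Cdk6+/+ tumours. Of all 18539 genes tested there, 8.12% were called higher, and every Cdk6-/- library was above every Cdk6+/+ library in 14.2%. Leaving out a further library kept the call only for Cdk6-/- tumour 4 (log2 fold change 1.56, adjusted p = 0.0104). It ended the call for Cdk6-/- tumour 2 (1.24, adjusted p = 0.0515), tumour 3 (1.45, adjusted p = 0.0528) and tumour 6 (0.96, adjusted p = 0.0710). It also ended it for Cdk6+/+ tumours 1 (1.31, adjusted p = 0.146), 2 (1.32, adjusted p = 0.117) and 3 (1.26, adjusted p = 0.160). With the level of the Y-linked gene Ddx3y as a covariate the value was 1.97 (adjusted p = 0.0539 in edgeR's test). DESeq2 on the 7 libraries gave 1.30 (adjusted p = 0.00720). It called higher 2882 of the 24180 genes to which it gave an adjusted p, 11.9%. The range over these and the other alternatives tried on the 7 libraries was 0.96 to 1.97, with adjusted p from 0.00720 to 0.160.

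**Figure D2:**
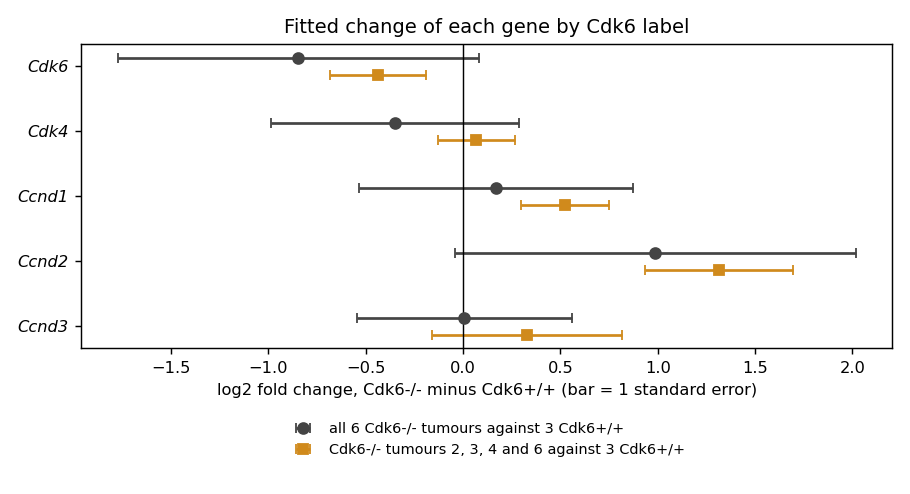
Fitted log2 fold change (Cdk6-/- minus Cdk6+/+) of each gene with 1 standard error, from all 9 libraries (circles) and without Cdk6-/- tumours 1 and 5 (squares). Ccnd2 without tumours 1 and 5, at 1.31, is the single value that passed the test.

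Markers of several cell types moved beside the Ccnd2 difference. The sum of 5 granule neuron progenitor markers was 2217 CPM in Cdk6-/- tumour 1 and 1067 CPM in tumour 5. In Cdk6-/- tumours 2, 3, 4 and 6 this sum was 1778 to 2016 CPM, against 1453 to 1759 CPM in Cdk6+/+ tumours. Without tumours 1 and 5, 3 of the 5 markers rose. The Purkinje sum was 67.6 to 361 CPM in Cdk6-/- tumours 2, 3, 4 and 6 and 631 to 1278 CPM in Cdk6+/+ tumours, with 3 of 5 markers lower. Astrocyte markers summed to 730 to 1484 CPM in Cdk6-/- and 2063 to 2120 CPM in Cdk6+/+ tumours (2 of 5 lower), oligodendrocyte markers to 209 to 985 CPM and 1135 to 2952 CPM (2 of 5 lower), and microglia markers to 150 to 188 CPM and 248 to 273 CPM (3 of 5 lower). Of 5 proliferation markers 1 was lower, and the sums overlapped. The sums also overlapped for mature granule neuron markers (1 of 5 lower) and for endothelial markers (0 of 5 called). Of all genes tested on the 7 libraries, 8.12% were called higher and 6.14% lower. Every Cdk6-/- library was above every Cdk6+/+ library in 14.2% of these genes and below in 15%. No marker had 0 counts in a library. Atoh1 and Gli1 are also among the pathway genes below. The part of these cells in the Ccnd2 result was not tested.

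Ccnd3, cyclin D3, was the least abundant member per kilobase of exon, and no difference by label was detected. It lies on chromosome 17 (47505051 to 47599691, plus strand). Cdk6-/- tumours 1 to 6 had 18.6, 16.1, 35, 88.3, 14.3 and 25.2 CPM, against 32.8, 37.0 and 28.5 CPM in Cdk6+/+ tumours 1 to 3. Tumour 4 was highest of all libraries, and 4 of the 6 Cdk6-/- tumours were below every Cdk6+/+ tumour. The log2 fold change was 0.01 (SE 0.55, adjusted p = 0.997 in edgeR's test). It was 0.33 (adjusted p = 0.673) without tumours 1 and 5 and -0.58 (adjusted p = 0.388) without tumour 4. Its sign turned under 10 of 18 alternatives, so no direction is given.

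Over all 9 libraries 0 of the 5 members passed edgeR's test, where 5.19% of 18356 genes did (2.76% higher and 2.43% lower). No member had an unadjusted p under 0.05 in it, and DESeq2 and limma-voom also called 0. Without tumours 1 and 5 the same test called 1 of 5, where 14.3% of all genes were called, and Ccnd1 and Ccnd2 had an unadjusted p under 0.05. The authors' deposited table of their DESeq2 comparison lists 761 of the 47593 genes and holds 0 of the 5 members. The smallest log2 fold change in that table is 1.70 in size and the largest adjusted p is 0.0499. In DESeq2 here every member was smaller in size than 1.70, with adjusted p from 0.575 to 0.991. Which limit left the members out is not given.

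In tumour 5 the members were below the other Cdk6-/- tumours by very different factors. Cdk6 was at 0.618% and Ccnd2 at 0.657% of the median of the other 5 Cdk6-/- tumours. Ccnd1 was at 4.32%, Cdk4 at 7.61% and Ccnd3 at 56.7%. Mycn, which drives progenitor proliferation, was at 0.926%, Mki67, a protein of dividing cells, at 0.0438%, and Atoh1, which specifies granule neuron progenitors, at 0.0268%. The Cdk4, Ccnd1 and Ccnd3 transcripts remained at a larger share than those of Cdk6 and Ccnd2 in the library with almost no transcripts of dividing cells. Genes on the opposite strand that overlap these 3 were counted below them in tumour 5. Tspan31 was at 23.8 CPM beside Cdk4 at 31.7 CPM. Oraov1 was at 20.7 CPM beside Ccnd1 at 22.2 CPM, and Bysl at 13.4 CPM beside Ccnd3 at 14.3 CPM. Over the 6 Cdk6-/- tumours Oraov1 was at 18.4 to 28.2 CPM and Bysl at 13.4 to 39.0 CPM. Whether reads were shared between these genes and the members was not tested. In tumour 1, with dividing-cell transcripts present (Mki67 at 89.4% of the median of tumours 2, 3, 4 and 6), Cdk4 was at 43.2%, Cdk6 at 52.5%, Ccnd3 at 61.8%, Ccnd1 at 66.9% and Ccnd2 at 84.3% of that median. These percentages describe 1 library each and have no replicate check.

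**Figure D3:**
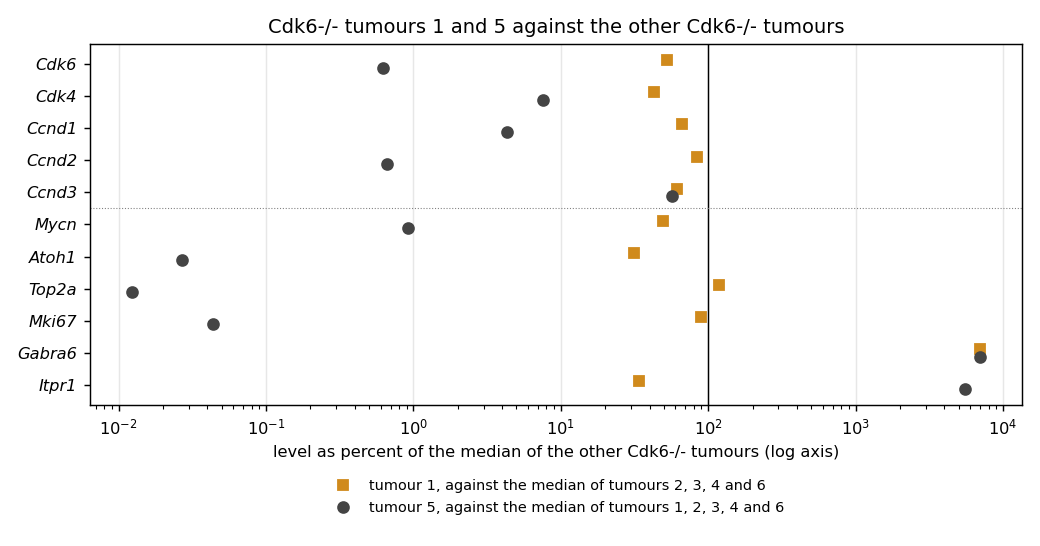
Level of the 5 genes and of Mycn, Atoh1, Top2a, Mki67, Gabra6 and Itpr1 in Cdk6-/- tumour 1 (squares, against the median of tumours 2, 3, 4 and 6) and tumour 5 (circles, against the median of the other 5), in percent on a log axis. In tumour 5 Cdk6 and Ccnd2 are below 1% and Ccnd3 is at 56.7%, while in tumour 1 all 5 genes are between 43.2% and 84.3%.

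Levels of different genes were compared after division by exon length, as CPM per kilobase of exon. In Cdk6-/- tumours the order of the means was Ccnd2 at 163 ± 115, Cdk4 at 112 ± 64.0, Ccnd1 at 89.5 ± 49.8, Cdk6 at 22.2 ± 14.1 and Ccnd3 at 3.75 ± 3.21 CPM per kilobase (SD, n = 6). In Cdk6+/+ tumours it was Cdk4 at 142 ± 11.7, Ccnd2 at 82.0 ± 2.75, Ccnd1 at 79.6 ± 5.32, Cdk6 at 39.9 ± 0.472 and Ccnd3 at 3.74 ± 0.484 CPM per kilobase (SD, n = 3). Ccnd2 was above Cdk4 in 4 of 6 Cdk6-/- tumours and in 0 of 3 Cdk6+/+ tumours. Neighbours in the Cdk6-/- order overlapped in range, although Ccnd1 exceeded Cdk6 in 6 of 6 and Cdk6 exceeded Ccnd3 in 5 of 6 of its libraries. In the Cdk6+/+ order only Ccnd2 and Ccnd1 overlapped, with Ccnd2 the higher in 2 of 3 libraries. The 3 cyclins summed to 238, 387, 230, 216, 7.40 and 456 CPM per kilobase in Cdk6-/- tumours 1 to 6. The same sum was 166, 173 and 157 CPM per kilobase in Cdk6+/+ tumours. Divided by the sum of Cdk4 and Cdk6, this gave 2.98, 2.30, 1.63, 1.04, 0.748 and 2.33 in Cdk6-/- tumours 1 to 6, against 0.875, 0.923 and 0.926 in Cdk6+/+ tumours 1 to 3. All Cdk6-/- tumours except tumour 5 had more cyclin per kinase transcript than any Cdk6+/+ tumour. The kinase sum, which includes Cdk6 itself, was 79.8 in tumour 1, 9.90 in tumour 5 and 141 to 208 CPM per kilobase in tumours 2, 3, 4 and 6. It was 169 to 190 CPM per kilobase in Cdk6+/+ tumours, and the ratio was not tested.

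The make-up within each library needs no scaling between libraries. Cdk6 was 19.1%, 23.9%, 13.7%, 15.9%, 1.56% and 12.8% of the Cdk4 plus Cdk6 transcripts in Cdk6-/- tumours 1 to 6, against 21.1%, 21.0% and 23.8% in Cdk6+/+ tumours 1 to 3. Every Cdk6-/- tumour except tumour 2, which was the highest of all 9, was below the Cdk6+/+ range. The means were 14.5% ± 7.52 (SD, n = 6) and 22.0% ± 1.57 (SD, n = 3), and the difference did not pass a two-sided exact permutation test (p = 0.119, adjusted p = 0.476 over the 4 shares tested). The smallest p this design allows is 0.0238 before adjustment over the 4 shares, so a share could pass only beside other shares of low p.

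Ccnd1 and Ccnd2 made up nearly all D-type cyclin transcripts outside tumour 5. Ccnd2 was 67.4%, 60.4%, 63.6%, 44.8%, 14.2% and 73.9% of the 3 in Cdk6-/- tumours 1 to 6, against 50.2%, 48.3% and 50.3% in Cdk6+/+ tumours 1 to 3. Tumours 1, 2, 3 and 6 of the Cdk6-/- group were above and tumours 4 and 5 below the Cdk6+/+ range. The mean shares of Ccnd2 were 54.0% ± 21.8 and 49.6% ± 1.12, and those of Ccnd1 were 40.9% ± 14.0 and 48.1% ± 0.954, in Cdk6-/- (SD, n = 6) and Cdk6+/+ (SD, n = 3) tumours. Ccnd3 was 22.0% in tumour 5, at most 4.65% in the other Cdk6-/- tumours and 2.08% to 2.44% in Cdk6+/+ tumours. None of the 3 cyclin shares passed the exact permutation test (adjusted p = 0.905 for each). Without tumours 1 and 5 the 4 adjusted p were 0.305 to 0.857, and 4 against 3 libraries cannot go below an exact p of 0.0571.

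**Figure D4:**
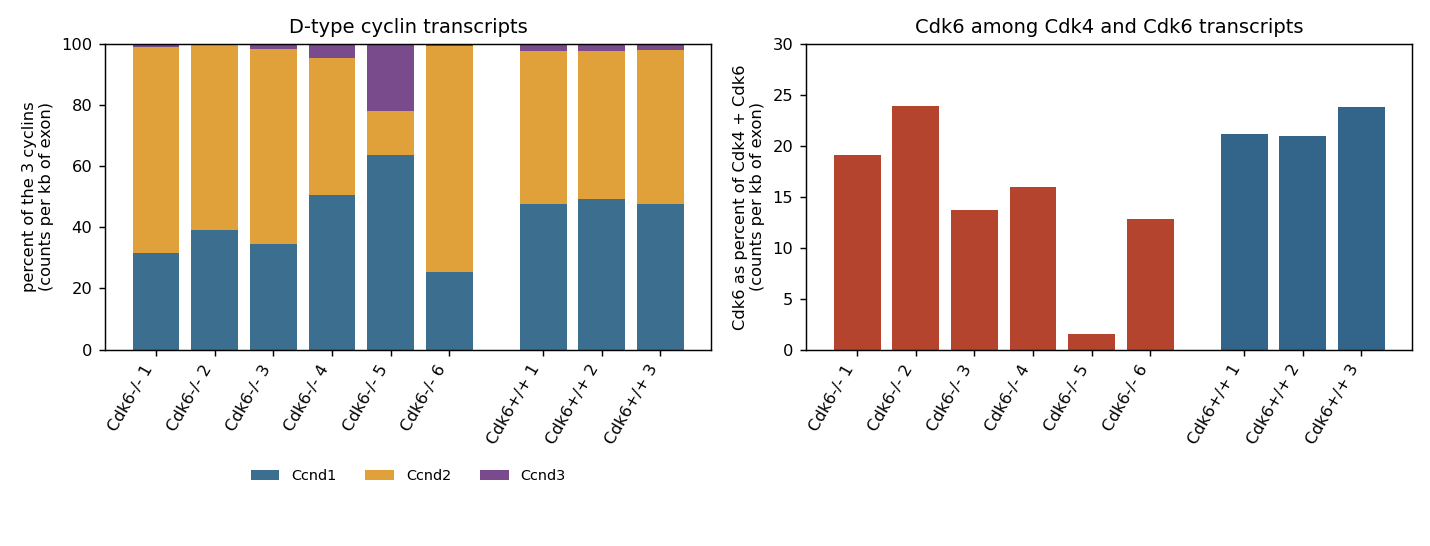
Share of each D-type cyclin among the 3 (left) and of Cdk6 among Cdk4 plus Cdk6 (right), in percent of counts per kilobase of exon, for each Cdk6-/- tumour and then each Cdk6+/+ tumour. The 3 Cdk6+/+ tumours are alike, with Ccnd2 at 48.3% to 50.3%, while the Cdk6-/- tumours run from 14.2% to 73.9%.

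Genes that act on or after these kinases were taken from a list of 41 in 8 roles, all of them tested. Over all 9 libraries 0 passed edgeR's test by label. Cdkn1a and Tfdp1 had an unadjusted p under 0.05 in it, and limma-voom called 0. DESeq2 called Cdkn1a (log2 fold change 1.65, adjusted p = 0.0304), where it called 1916 of 32046 genes with any count higher. The median log2 fold change of the list was 0.03, beside 0.16 over all genes tested. Without tumours 1 and 5, 5 rose and 1 fell, where 8.12% of all genes were called higher and 6.14% lower. The list's median was then 0.14, beside 0.04 over all genes.

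Among the INK4 inhibitors of Cdk4 and Cdk6, 2 of 4 rose without tumours 1 and 5. Cdkn2a, which encodes p16 and p19Arf, averaged 4.67 ± 0.977 CPM (SD, n = 4) in Cdk6-/- and 1.56 ± 0.394 CPM (SD, n = 3) in Cdk6+/+ tumours (log2 fold change 1.58, SE 0.34, adjusted p = 0.0160). Cdkn2b, which encodes p15, averaged 5.15 ± 0.960 CPM in Cdk6-/- and 2.14 ± 0.488 CPM in Cdk6+/+ tumours (1.26, SE 0.32, adjusted p = 0.0298). Both were low in level, and in both every one of the 4 Cdk6-/- libraries was above every Cdk6+/+ library, as in 14.2% of all genes tested on the 7 libraries. Tumour 5 had 0 counts of Cdkn2a and 0.884 CPM of Cdkn2b, and tumour 1 had 1.28 and 12.7 CPM. Cdkn2c, an INK4 gene at a higher level than these, went the other way. It had 5.75 to 52.4 CPM in the 6 Cdk6-/- tumours and 53.1 to 59.6 CPM in Cdk6+/+ tumours. The groups were apart in this direction in 7.98% of all genes tested on the 9 libraries. Cdkn2c did not pass edgeR's test with all libraries (log2 fold change -0.64, adjusted p = 0.532) or without tumours 1 and 5 (-0.32, adjusted p = 0.254). Of the 3 CIP/KIP inhibitors none passed edgeR's test in either set of libraries, while DESeq2 called Cdkn1a over all 9, as given above. Cdkn1a, which encodes p21, was above the Cdk6+/+ range of 25.8 to 28.7 CPM in all 6 Cdk6-/- tumours, at 41.0 to 208 CPM, and the log2 fold change was 1.68 with an SE of 0.56 (adjusted p = 0.126 in edgeR's test). Every Cdk6-/- library was above every Cdk6+/+ library in 7.56% of all genes tested on the 9 libraries.

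Among the targets of the kinases, none of the 3 pocket proteins passed, and Rbl1, a relative of Rb1, had the smallest p over all libraries (log2 fold change -0.33, adjusted p = 0.744). Of the 10 E2F and DP factors, Tfdp1, the DNA-binding partner of E2F proteins, fell by 0.82 on the log2 scale without tumours 1 and 5 (SE 0.21, adjusted p = 0.0283). It had 31.3 to 125 CPM in the 6 Cdk6-/- tumours, against 163 to 169 CPM in Cdk6+/+ tumours, so the groups were apart with all libraries, as in 7.98% of all genes tested in this direction. With all 9 libraries its value was -1.06 (SE 0.34, adjusted p = 0.116), and without tumour 5 alone -0.89 (adjusted p = 0.0352). The 4 genes of the cyclin E and A kinases, which act after Rb1 phosphorylation, all had negative values and none passed. Ccne2, cyclin E2, averaged 46.5 ± 23.0 CPM (SD, n = 6) in Cdk6-/- and 82.7 ± 9.40 CPM (SD, n = 3) in Cdk6+/+ tumours (log2 fold change -0.83, SE 0.40, adjusted p = 0.294 in edgeR's test).

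Upstream of the D-type cyclins, none of 5 inducers passed edgeR's test over all 9 libraries. The log2 fold changes there were 0.45 for Atoh1, 1.01 for Gli1 and 0.57 for Gli2 (adjusted p = 0.874, 0.527 and 0.704). In these 3 genes Cdk6-/- tumours 1 and 5 were below every Cdk6+/+ tumour. They had 51.8 and 0.0442 CPM of Atoh1, 54.2 and 22.0 CPM of Gli1 and 30.2 and 11.5 CPM of Gli2. The lowest Cdk6+/+ values were 75.9, 73.1 and 52.8 CPM. Without tumours 1 and 5, 3 of the 5 rose. Atoh1 averaged 166 ± 24.9 CPM (SD, n = 4) in Cdk6-/- and 87.1 ± 9.84 CPM (SD, n = 3) in Cdk6+/+ tumours (log2 fold change 0.93, SE 0.19, adjusted p = 0.0115). Gli1 and Gli2, transcription factors of the Hedgehog pathway, rose by 1.501 (SE 0.41, adjusted p = 0.0395) and 1.04 (SE 0.28, adjusted p = 0.0365), with the groups overlapping for Gli1. Mycn was at 312 ± 30.9 CPM (SD, n = 4) in Cdk6-/- and 216 ± 20.1 CPM (SD, n = 3) in Cdk6+/+ tumours, with a log2 fold change of 0.54 that did not pass (adjusted p = 0.0639 in edgeR's test). None of the 5 genes of kinase assembly and activation and none of the 7 genes of cyclin D turnover passed. The smallest p in these roles over all libraries belonged to Mnat1, a subunit of the CDK-activating kinase (log2 fold change -0.58, adjusted p = 0.340), and to Fbxo31, a cyclin D1 ubiquitin ligase subunit (0.77, adjusted p = 0.305). Of 10 alternatives on the 7 libraries, Cdkn2a and Atoh1 passed in 7 each, Cdkn2b and Gli2 in 6 each, Tfdp1 in 5 and Gli1 in 3. The count of 6 called genes was 0 without Cdk6+/+ tumour 1 or 3, 2 without Cdk6+/+ tumour 2, 17 without Cdk6-/- tumour 2 and 1 (Gli2, adjusted p = 0.0240) with the Ddx3y level as a covariate. With the covariate the log2 fold changes were 1.94 for Cdkn2a, 1.46 for Cdkn2b, 0.90 for Atoh1, 1.35 for Gli1 and 1.68 for Gli2, and -0.44 for Tfdp1.

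**Figure D5:**
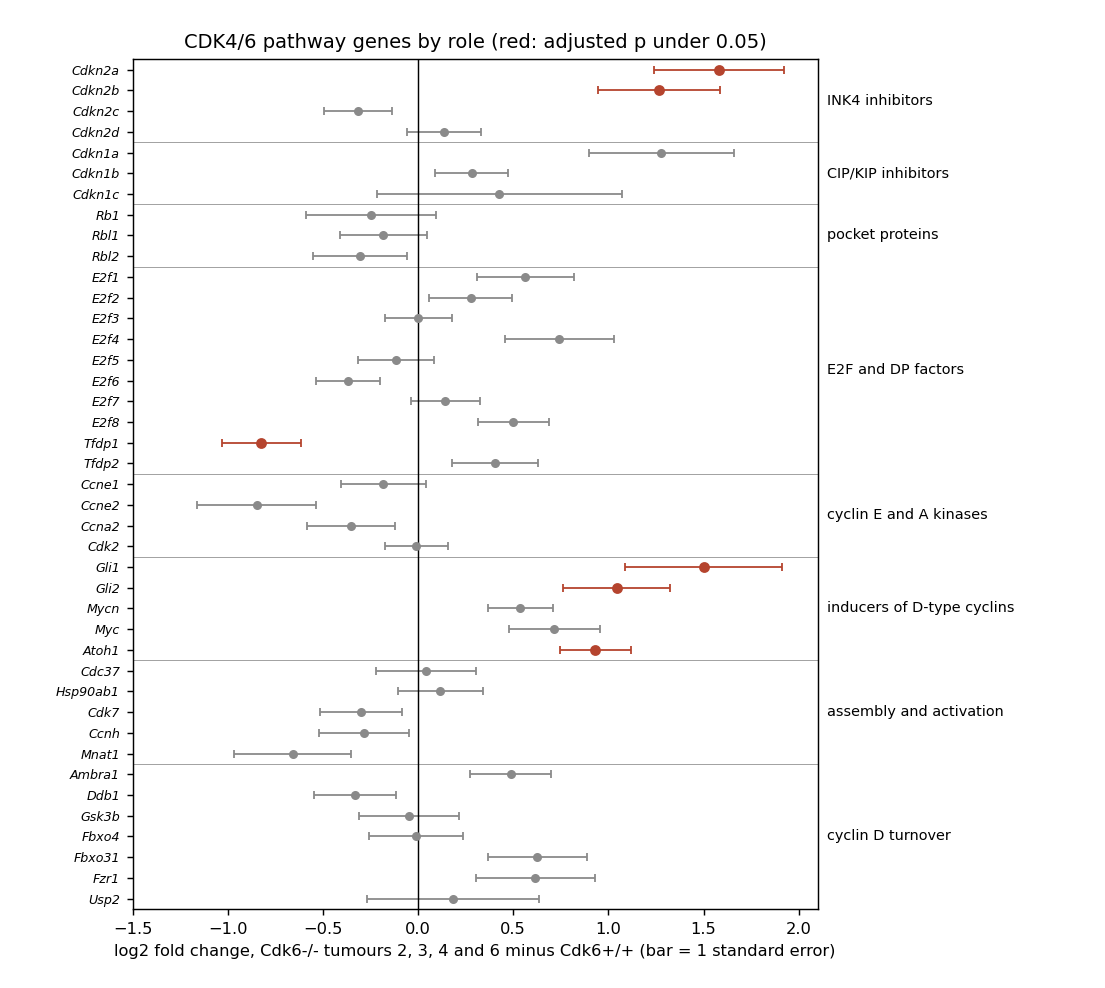
Log2 fold change (Cdk6-/- tumours 2, 3, 4 and 6 minus Cdk6+/+) with 1 standard error for the 41 pathway genes, grouped by role, with genes past the adjusted p threshold in red. Cdkn2a (1.58), Cdkn2b (1.26), Gli1 (1.501), Gli2 (1.04) and Atoh1 (0.93) are to the right and Tfdp1 (-0.82) to the left.

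Likeness of pattern was measured as the root mean square difference between log2 CPM profiles over the 9 libraries, each centred on its own mean. Nearest to Cdk6 were Cdca7, a cell division cycle associated gene (difference 0.26), Cdc25c, a phosphatase that activates Cdk1 (0.34), and Spc25, a kinetochore protein (0.35). Nearest to Cdk4 were Tcf19 (0.16), the beta tubulin gene Tubb5 (0.17) and Dnph1, a nucleotide hydrolase (0.18). Nearest to Ccnd1 were the kinase gene Map3k1 (0.11), the transcription factor gene Ebf3 (0.18) and AI506816 (0.21). Ccnd2 had no close neighbour, with Cdca2, a mitotic phosphatase regulator, at 0.52, Sfrp1, a secreted Wnt antagonist, at 0.54 and the exonuclease gene Exo1 at 0.55. Nearest to Ccnd3 were the sphingolipid desaturase gene Degs2 (0.21), neuroglobin (Ngb, 0.22) and the MHC class I related gene H2-T23 (0.26). Among the members, Cdk4 and Ccnd1 were most alike (0.44) and Ccnd2 and Ccnd3 least (2.19). None of the 15 named genes was among the nearest 3 once tumours 1 and 5 were both left out.

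Exons of another gene on the opposite strand overlap part of each member's exons, and the sources used here do not say whether counting was stranded. The share of exon bases was 19.7% in Cdk4 (opposite Tspan31), 23.4% in Ccnd1 (opposite Oraov1, also named LTO1), 7.87% in Ccnd2 (opposite 9330179D12Rik and Gm43126), 4.11% in Ccnd3 (opposite Bysl) and 2.63% in Cdk6 (opposite Gm17590). Tspan31 was counted at 23.8 to 53.3 CPM in Cdk6-/- and 55.5 to 70.6 CPM in Cdk6+/+ tumours, and Oraov1 at 18.4 to 28.2 CPM and 19.6 to 23.0 CPM. Beside Ccnd2, 9330179D12Rik was at 0.221 to 8.22 CPM in Cdk6-/- and 1.37 to 2.05 CPM in Cdk6+/+ tumours, far below the Ccnd2 level in every library. Bysl was at 13.4 to 39.0 CPM in Cdk6-/- and 19.8 to 23.1 CPM in Cdk6+/+ tumours. Ccnd3 itself was at 14.3 to 88.3 CPM and 28.5 to 37.0 CPM in these groups. Of the 50-base sequences of each member, 21.6% in Ccnd1, 17% in Cdk4, 6.31% in Ccnd2, 5.39% in Ccnd3 and 3.32% in Cdk6 also occur in another annotated gene on either strand.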

How the data were processed

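The authors deposited whole-number counts per gene, unnormalized, beside each gene's position and exon length. A second table deposited by the authors holds their DESeq2 comparison, per the file headers, with log2 fold changes, p-values and a score (a negative log of the p-value, not used here). Trimmomatic, HISAT2, FastQC, DESeq2 and the build GRCm38.p6 appear in the submitters' processing notes. The sources used here do not name the counting tool. Groups were taken from the genotype labels. Library pairs within a group differed by a chi-square of at least 34.0 per degree of freedom, so no library was held 2 times.

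Genes with low counts were removed by filterByExpr (edgeR 4.0.16 in R 4.3.3), which kept 18356. After TMM scaling, a robust quasi-likelihood fit in edgeR tested the label alone, with Benjamini-Hochberg adjustment over all genes tested and a threshold of 0.05. SE were derived from the test statistic. Alternatives used DESeq2 1.42.0 and limma 3.58.1 (limma-voom), other scalings and filters, a Ddx3y covariate, the replicate number and left-out libraries. The edgeR, DESeq2 and limma-voom fits and the likeness measure were run on simulated data. Those data had less spread between libraries than these and no library apart, so they check the code alone. Shares, overlaps and motif counts were not tested in this way. Shares were tested with exact permutation tests (scipy 1.17.1). Overlap and shared sequence used GENCODE M21, whose starts and ends equal the deposited ones for all 5 members. Promoters are from RefSeq (GRCm38.p6), where 3 of the 5 members matched.

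The 5 members, the lists and tumours 1 and 5 were chosen with earlier results of these data known. Genes named are the 5 members, each pathway gene past the test in either set of libraries or with the smallest p of its role, and the 3 nearest in pattern to each member, predicted genes, clones and pseudogenes passed over. Mycn, Usp2, Cdkn2c and the single markers given for tumours 1 and 5 (Mki67, Top2a, Gabra6, Itpr1 and, there, Atoh1) fall outside this rule and were chosen after their values were seen.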

Additional observations from a re-analysis of the deposited data

Results flagged for a closer look

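Of 12 sets of 6 Cdk6-/- values examined (levels, sums and shares), 2 held a library far from the rest, by Dixon's 95% critical value, which chance passes in about 1 of 20 sets. Ccnd3 was at 88.3 CPM in tumour 4 and at 14.3 to 35 CPM in the other 5, a gap of 0.719 of the whole range. The share of Ccnd3 among D-type cyclins reached 22.0% in tumour 5, with 4.65% the next highest, a gap of 0.806 of the range. In tumour 5 the 3 cyclins summed to 7.40 CPM per kilobase, against 216 to 456 in the other Cdk6-/- tumours.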

How the results depend on the processing

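Cdk6 had a negative value under all 18 alternatives (-1.90 to -0.44) and passed the test in none. The other members changed direction under some. Without Cdk6-/- tumours 1 and 5 Cdk4 had 0.068 and the Ccnd3 share a difference of -0.38 percentage points. Ccnd2 kept its direction there, at 1.31 (adjusted p = 0.0463 in edgeR's test). Limma-voom gave -0.37 for Ccnd1, -0.13 for Ccnd2 and -0.29 for Ccnd3, with the median of all genes moved by -0.10. Ccnd3 had -0.017 by DESeq2, -0.0062 with RLE scaling, -0.045 without a filter and -0.52 with the Ddx3y covariate. Leaving out 1 library gave -0.075 (without Cdk6-/- tumour 2) to 0.42 for Ccnd1, -0.58 to 0.17 for Ccnd3 and -0.58 to 3.72 percentage points for the Ccnd3 share. Changed genes numbered 953 over all 9 libraries (507 higher, 446 lower). They were 2643 without tumours 1 and 5, 2843 by DESeq2 (1916 higher, 927 lower), 563 with at least 1 CPM in 3 libraries, 59 with the covariate and 207 to 1506 with 1 library left out. Pathway genes called were 0 over all 9 libraries, 6 without tumours 1 and 5, 1 by DESeq2 and 0 to 1 with 1 library left out. Of the 15 nearest genes 0 were kept without tumours 1 and 5, and 14 with a prior count of 0.5. On the 7 libraries, in alternatives added after seeing the data, 2643 changed genes became 4675 by DESeq2, and 355 with the covariate. They were 4236 and 1744 without Cdk6-/- tumour 2 or 3, and without Cdk6+/+ tumour 1, 2 or 3 they were 845, 1609 and 834. Pathway genes were 1 with the covariate, 17 without Cdk6-/- tumour 2 and 0, 2 and 0 without Cdk6+/+ tumour 1, 2 or 3. Ccnd2 had 1.97 with the covariate, 1.24, 1.45, 1.56 and 0.96 without Cdk6-/- tumour 2, 3, 4 or 6, and 1.31, 1.32 and 1.26 without Cdk6+/+ tumour 1, 2 or 3. The cause of these shifts was not tested. No share passed its test in any alternative. Without tumours 1 and 5 none could, as the smallest exact p there is 0.0571. Leaving out a Cdk6+/+ library also gives too few splits for a pass. Same-numbered tumours of the groups shared only a number, with correlations of their deviations of 0.05, -0.18 and -0.25. With the replicate number as a block, the label effect rests on tumours 1 to 3 of each group, as numbers 4 to 6 are Cdk6-/- alone. The replicate block gave -0.58 for Ccnd3 (adjusted p = 0.521 in edgeR's test), 822 changed genes and no call among the members. The 3 Cdk6+/+ libraries and the spread among Cdk6-/- tumours limit what could be detected.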

Other observations

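Usp2, a deubiquitinase known to stabilise cyclin D1 and chosen here after its values were seen, was highest in the libraries with most mature granule neuron transcripts. It was at 101 CPM in Cdk6-/- tumour 5, 40.0 CPM in tumour 1 and 4.35 CPM in the lowest Cdk6-/- tumour, against 9.30 to 10.2 CPM in Cdk6+/+ tumours. Its log2 fold change over all libraries was 1.67 (SE 0.91, adjusted p = 0.356 in edgeR's test), and 0.18 (adjusted p = 0.805) without tumours 1 and 5.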
